A study of Mus musculus with 18 samples.

Results

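The TRiC/CCT chaperonin was followed at the level of its transcripts in NIH-3T3 cells exposed to the proteasome inhibitor carfilzomib (CFZ). The members were the 8 genes that encode its subunits, Tcp1, Cct2, Cct3, Cct4, Cct5, Cct6a, Cct7 and Cct8, chosen by name from the 23420 gene symbols of the count table, and all 8 passed the filter on low counts that 11762 genes passed. NIH-3T3 cells are an immortal fibroblast line derived from mouse embryos. The study compared wild-type cells (WT) with a line in which Nrf1 was knocked out by CRISPR/Cas9 (Nrf1KO), each kept in the vehicle DMSO or in 200 nM CFZ for 6 h or for 24 h, with 3 replicate libraries in each of the 6 groups (18 in all). Replicates were named biological by the study, and whether the knockout line came from a single clone was not given in the sources used here. Differences between the lines from loss of Nrf1 and from any other divergence of the lines cannot be told apart. Each line had a single DMSO group, whose duration the labels do not give, so its comparisons at both times shared their control libraries.

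TRiC is a barrel of stacked rings that encloses newly made proteins and lets them fold in an ATP-driven cycle. Each ring holds a copy of every subunit, each from its own gene, so the complex needs all of them. Actin and tubulin are its best known clients, prefoldin hands it unfolded chains, and in fibroblasts it supplies the cytoskeleton. Tcp1, Cct2, Cct4 and Cct5 encode the subunits on the side of the ring that binds ATP tightly, and Cct3, Cct6a, Cct7 and Cct8 encode those on the side that binds it weakly. Nrf1, encoded by Nfe2l1, is the transcription factor that raises proteasome genes when the proteasome is inhibited.

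Libraries held 8333148 to 23917081 counts (median 14419832), and all 18 correlated best with a library of their own group. Nfe2l1 was 448 ± 9.87 CPM (counts scaled to library size, mean ± SD, n = 3) in WT DMSO. In Nrf1KO DMSO it was 180 ± 5.27, a log2 difference of -1.31 (SE 0.034, adjusted p = 1.6e-24). After 6 h of CFZ it was 642 ± 12.4 CPM in WT and 419 ± 7.19 in Nrf1KO (log2 difference -0.62). After 24 h it was 565 ± 13.4 CPM in WT and 204 ± 4.45 in Nrf1KO (-1.47). Nfe2l1 was thus called lower in Nrf1KO in DMSO and at both times of CFZ. A transcript that carries a small edit is still counted, so the level of Nfe2l1 does not measure the protein. All 8 fibroblast markers were detected in every library, from at least 21 CPM for Thy1 and 42.7 for Pdgfrb up to at least 3643 for Fn1, with Col1a1, Col1a2, Col3a1, Vim and Pdgfra between. Their summed level in WT was 31578 to 34252 CPM over the DMSO libraries, 27398 to 29827 at 6 h and 7958 to 8266 at 24 h. In Nrf1KO it was 25352 to 31830 CPM in DMSO, 27902 to 31579 at 6 h and 10912 to 13019 at 24 h. In WT 7 of the 8 markers were called lower at 6 h and 8 at 24 h (median log2 change -0.44 and -2.13), and in Nrf1KO 5 and 6 were (-0.29 and -1.90). Of all genes tested, 36.2% and 40.5% were called lower in WT, and 35% and 41.1% in Nrf1KO. In WT at 6 h 1 marker was called higher (Fn1, 0.22), as was 1 in Nrf1KO at 6 h and 1 at 24 h. The part of these changes in the subunit results was not tested.

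Markers of other cell types were low but not all silent. Of the epithelial markers, Epcam and Krt18 had no count in any library and Krt8 had at most 3, while Cdh1 was at 6.12 ± 0.231 CPM in WT DMSO and 11.6 ± 1.22 in Nrf1KO DMSO and was called lower with CFZ in all 4 comparisons. The endothelial list summed to at most 0.591 CPM in the DMSO libraries and to 2.54 to 3.83 at 24 h, where Cdh5 was called higher in both lines and Pecam1 had at most 6 counts in any library. The leukocyte list summed to at most 1.97 CPM in DMSO and to 2.75 to 3.78 in WT and 5.56 to 5.77 in Nrf1KO at 24 h, where Cd68 was called higher in both lines. Ptprc had 0 counts in all WT libraries and 6 to 26 counts in each Nrf1KO library. The part of these genes in the subunit results was not tested.

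In GENCODE M21 annotation of GRCm38, the members lay on 8 chromosomes. Tcp1 was at chr17:12915701-12925067 on the plus strand. Cct2 was at chr10:117051001-117063814 on the minus strand. Cct3 was at chr3:88297116-88321767 on the plus strand. The positions of the other five were chr11:22990519-23003780 (plus) for Cct4, chr15:31590800-31601804 (minus) for Cct5, chr5:129786998-129846371 (plus) for Cct6a, chr6:85451514-85468475 (plus) for Cct7 and chr16:87483326-87495873 (minus) for Cct8. No member shared a transcript stretch as long as a read with another protein-coding gene of that annotation, and Tcp1 shared 0.26% of its stretches with a snoRNA gene inside it. Exons of genes on the opposite strand covered 14.2% of the exonic bases of Tcp1 (Acat3 and Mrpl18), 12.5% of Cct6a (Psph), 6.22% of Cct8 (Usp16) and 3.16% of Cct7 (Pradc1). The library kit kept the strand, but whether the counting used it was not given in the sources used here, so the counts of those 4 genes could include reads of their partners.

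Promoter sequences were taken from RefSeq on GRCm38.p6, as the 250 bases before each start, and 7 of the 8 members matched an entry, Cct4 not among them. Motifs were searched as letters on both strands. The paired heat shock units GAANNTTC and TTCNNGAA, which heat shock factors bind, were in 6.69% and 7.17% of 32851 promoters. The antioxidant response core TGACNNNGC, of the kind that Nrf1 and related factors bind, was in 10.2%, CCAAT in 33.8% and TGACGTCA in 1.55%. Among the members, GAANNTTC was in Cct2, TTCNNGAA in Cct5, TGACNNNGC in Cct2, Cct6a and Tcp1, CCAAT in Cct3, Cct6a, Cct7 and Tcp1, and TGACGTCA in none. The windows of Cct2, Cct6a and Tcp1 that held TGACNNNGC lay wholly inside the gene in GENCODE. Of matched genes, TGACNNNGC was in 0 of 7 of the 20S alpha ring of the proteasome and 2 of 13 cytosolic heat shock genes. GAANNTTC was in 5 of these 13 heat shock genes and TTCNNGAA in 1, against 1 of 7 members each. In the alpha ring each was in 0 of 7, and in the mitochondrial chaperonin (Hspd1 and Hspe1) each was in 2 of 2. Cct2 and Cct5 had windows at separate starts, while the shares of all promoters count each window on its own. A match is a run of letters and no measurement of binding. The windows of Cct2 and Cct5 are shown because they hold the heat shock letters, and that of Cct7 because its gene had the highest fitted change at 6 h. Capitals mark the motif letters.
Cct2, chr10:117063376-117063625, minus strand, inside an intron of Cct2 in GENCODE: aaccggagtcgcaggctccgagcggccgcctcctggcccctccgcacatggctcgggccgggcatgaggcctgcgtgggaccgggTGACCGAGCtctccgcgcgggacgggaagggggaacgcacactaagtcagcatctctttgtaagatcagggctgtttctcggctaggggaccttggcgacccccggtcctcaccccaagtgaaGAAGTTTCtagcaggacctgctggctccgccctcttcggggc
Cct2, chr10:117063853-117064102, minus strand, upstream of the gene and without a match: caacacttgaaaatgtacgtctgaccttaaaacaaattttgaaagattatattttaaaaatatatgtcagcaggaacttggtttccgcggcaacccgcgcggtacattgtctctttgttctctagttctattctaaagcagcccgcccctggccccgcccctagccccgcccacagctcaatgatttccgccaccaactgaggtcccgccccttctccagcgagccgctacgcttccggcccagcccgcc
Cct5, chr15:31601847-31602096, minus strand, upstream of the gene: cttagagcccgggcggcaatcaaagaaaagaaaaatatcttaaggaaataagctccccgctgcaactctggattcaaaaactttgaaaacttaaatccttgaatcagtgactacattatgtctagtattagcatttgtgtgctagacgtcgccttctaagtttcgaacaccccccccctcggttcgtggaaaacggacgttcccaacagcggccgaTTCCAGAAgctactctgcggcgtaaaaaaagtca
Cct7, chr6:85451255-85451504, plus strand, upstream of the gene, with CCAAT on the other strand: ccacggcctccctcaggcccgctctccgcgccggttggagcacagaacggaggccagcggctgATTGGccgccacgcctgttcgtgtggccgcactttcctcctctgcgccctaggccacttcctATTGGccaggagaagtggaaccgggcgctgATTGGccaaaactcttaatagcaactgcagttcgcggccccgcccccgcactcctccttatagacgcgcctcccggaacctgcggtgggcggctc

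The first question was how the subunit genes responded to CFZ in WT cells. All 8 rose at 6 h and all 8 were above DMSO at 24 h, against 35.6% of all genes called higher at 6 h and 43.2% at 24 h (edgeR quasi-likelihood test, adjusted p under 0.05). The median log2 fold change of the subunits was 0.53 at 6 h and 0.65 at 24 h, and that of all genes tested was -0.02 and 0.02. Every CFZ library lay above every DMSO library for all 8 subunits at both times, which was also so for 36.7% of genes at 6 h and 43.4% at 24 h, while a further 37.5% and 41.1% of genes lay wholly below. Changes were moderate. At 6 h Cct7, Cct3 and Cct6a were past 1.5-fold on the fitted scale with an adjusted p under 0.05, a size that 10.9% of genes reached, and at 24 h Cct2, Cct6a, Cct7 and Cct8 were, where 22.7% of genes reached it. Cct2 at 6 h, with a log2 change of 0.58, lay just under it. In bulk RNA, fewer cells of a type and less RNA per cell cannot be told apart.

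On the tight-binding side of the ring, Tcp1 was steady within groups. In WT its levels were 686, 685 and 687 CPM in DMSO, 878, 875 and 863 at 6 h, and 829, 850 and 838 at 24 h. The log2 change was 0.35 (SE 0.031, adjusted p = 2.2e-11) at 6 h and 0.29 (SE 0.031, adjusted p = 5.3e-10) at 24 h. Tcp1 thus changed least of the 8 subunits at 6 h in these fitted values.

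Cct2 behaved differently over time. Its WT levels were 571, 569 and 573 CPM in DMSO, 854, 851 and 857 at 6 h, and 1227, 1244 and 1225 at 24 h, so the 3 groups stood apart and the 24 h libraries were highest. The log2 change was 0.58 (SE 0.032, adjusted p = 1.0e-16) at 6 h and 1.11 (SE 0.032, adjusted p = 1.2e-24) at 24 h. The step from 6 h to 24 h was itself called, at 0.53 (SE 0.032, adjusted p = 8.0e-16). Cct2 was the highest of the 8 in fitted change at 24 h.

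Cct4 and Cct5 moved less. WT levels of Cct4 were 470, 457 and 461 CPM in DMSO, 598, 614 and 598 at 6 h, and 546, 566 and 562 at 24 h. Its log2 change was 0.38 at 6 h and 0.27 at 24 h. WT levels of Cct5 were 574, 592 and 584 CPM in DMSO, 791, 797 and 793 at 6 h, and 861, 877 and 845 at 24 h, and its log2 change was 0.44 and 0.56. The DMSO libraries of both genes lay below all treated ones.

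On the weak-binding side, Cct3, Cct6a and Cct7 were highest at 6 h in WT, as were Tcp1 and Cct4 on the tight-binding side. WT levels of Cct3 were 307, 326 and 307 CPM in DMSO, 557, 573 and 556 at 6 h, and 445, 468 and 465 at 24 h. Its log2 change was 0.84 (SE 0.036, adjusted p = 1.9e-19) at 6 h and 0.55 (SE 0.036, adjusted p = 3.6e-15) at 24 h. For Cct7 the WT levels were 357, 369 and 360 CPM in DMSO, 703, 681 and 676 at 6 h, and 589, 614 and 606 at 24 h. The log2 change of Cct7 was 0.92 (SE 0.035, adjusted p = 7.8e-21) at 6 h, the highest of the 8, and 0.74 at 24 h.

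Cct6a had the lowest CPM of the 8 in the WT groups. It was at 195, 204 and 199 CPM in DMSO, 351, 355 and 355 at 6 h, and 322, 341 and 334 at 24 h, with log2 changes of 0.83 and 0.74. Cct8 went the other way in time, with WT levels of 281, 290 and 287 CPM in DMSO, 403, 400 and 400 at 6 h, and 482, 497 and 490 at 24 h. The log2 change of Cct8 was 0.49 at 6 h and 0.78 at 24 h.

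**Figure D1:**
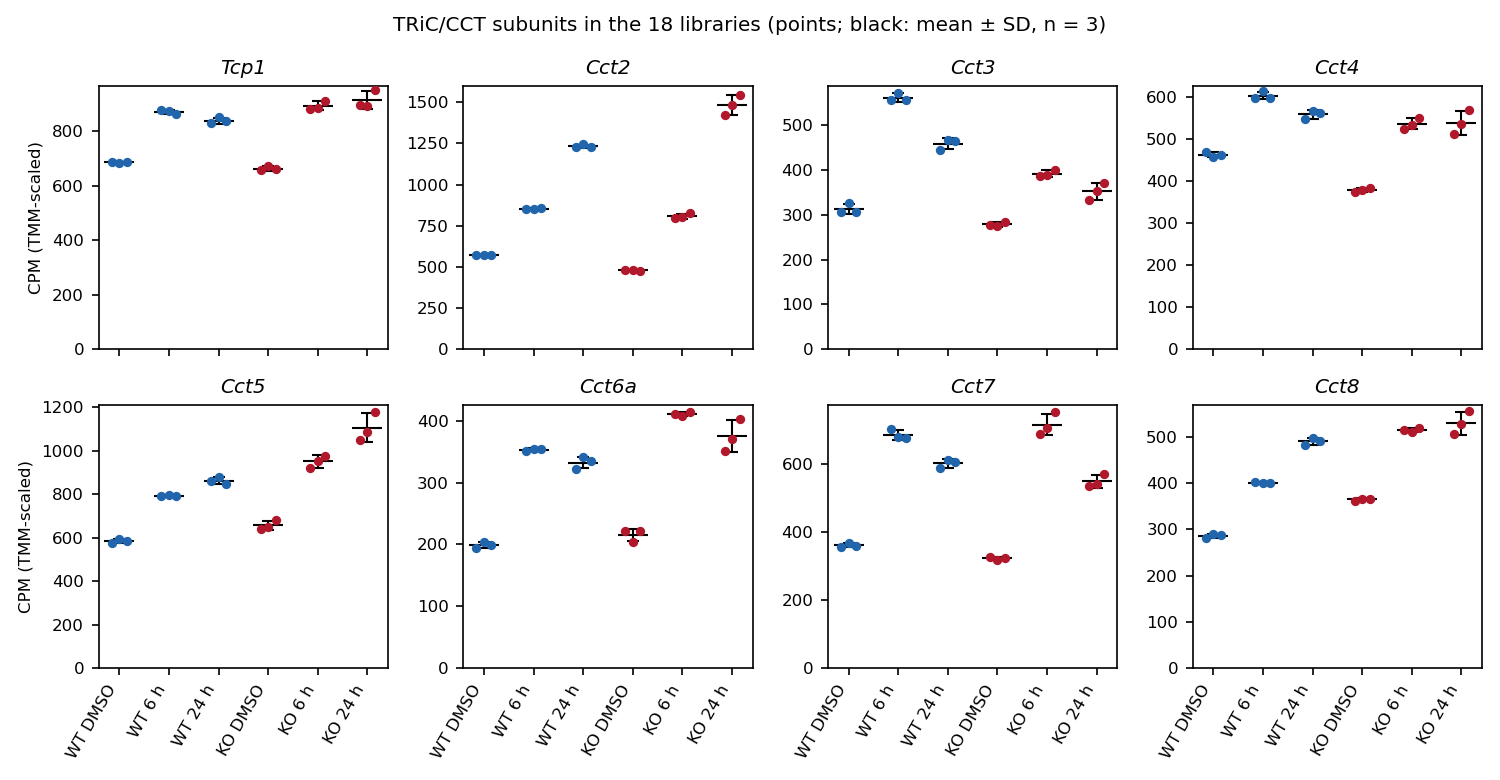
TRiC/CCT subunit levels (CPM, TMM-scaled) in the 18 libraries, 1 panel a gene, with WT in blue, Nrf1KO in red and black marks for the mean ± SD (n = 3). All treated libraries lie above the DMSO libraries of their line, Cct2 is highest at 24 h in both lines, and Cct3, Cct6a and Cct7 are highest at 6 h in both.

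Between 6 h and 24 h in WT cells, Cct2, Cct5 and Cct8 were called higher, where 36.9% of genes were, and Cct3, Cct4 and Cct7 lower, where 35.4% were. The fall was 0.29 on the log2 scale for Cct3, 0.11 for Cct4 and 0.19 for Cct7. Tcp1 (-0.06, adjusted p = 0.11) and Cct6a (-0.09, adjusted p = 0.052) did not pass, though both were called under some alternatives. The call of Cct5 (0.12, SE 0.037, adjusted p = 0.0054) was lost when WT DMSO replicate 1 (adjusted p = 0.062), Nrf1KO CFZ 24 h replicate 2 (0.065), or WT CFZ 6 h replicate 1 (0.12), 2 (0.087) or 3 (0.11) was left out.

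Nrf1KO cells answered CFZ at all 8 genes as well. At 6 h all 8 subunits were called higher, against 34.5% of all genes, with a median log2 change of 0.52 beside -0.01 for all genes. At 24 h all 8 were called higher, against 44.4% of genes, with a median of 0.64 beside 0.03. All treated libraries lay above all DMSO libraries for each of the 8 at both times, which was also so for 35% of genes at 6 h and 43.8% at 24 h, while a further 35.6% and 40.5% of genes lay wholly below. At 6 h Cct2, Cct6a and Cct7 were past the 1.5-fold size that 9.84% of genes reached, and at 24 h Cct2, Cct5, Cct6a and Cct7 were, where 23.9% of genes reached it.

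Cct2 had the largest fitted change of the 8 in the knockout line at 24 h. Its Nrf1KO levels were 479, 483 and 476 CPM in DMSO, 796, 804 and 825 at 6 h, and 1423, 1484 and 1545 at 24 h. The log2 change was 0.75 (SE 0.032, adjusted p = 2.1e-19) at 6 h and 1.63 (SE 0.032, adjusted p = 4.2e-29) at 24 h. Tcp1 stayed closer together, at 657, 672 and 660 CPM in DMSO, 880, 887 and 912 at 6 h, and 895, 894 and 951 at 24 h, with log2 changes of 0.43 and 0.46.

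Cct4 in Nrf1KO was at 374, 377 and 383 CPM in DMSO, 524, 533 and 550 at 6 h, and 511, 536 and 569 at 24 h, and changed by 0.50 and 0.51 on the log2 scale. Cct5 in Nrf1KO was at 641, 647 and 681 CPM in DMSO, 920, 953 and 977 at 6 h, and 1051, 1086 and 1179 at 24 h, and changed by 0.53 and 0.75. Both stayed up at 24 h.

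Cct7 had the largest fitted change at 6 h in this line. The Nrf1KO levels of Cct7 were 326, 319 and 325 CPM in DMSO, 691, 708 and 753 at 6 h, and 536, 543 and 572 at 24 h, and the log2 change was 1.15 (SE 0.035, adjusted p = 4.0e-23) at 6 h and 0.77 at 24 h. Cct3 was lower throughout than in WT, at 277, 275 and 283 CPM in DMSO, 387, 388 and 401 at 6 h, and 334, 352 and 370 at 24 h, with log2 changes of 0.49 and 0.34.

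For Cct6a the Nrf1KO levels were 221, 205 and 221 CPM in DMSO, 411, 409 and 414 at 6 h, and 352, 371 and 404 at 24 h, and the log2 changes were 0.93 and 0.80. Cct8 in Nrf1KO was at 362, 366 and 366 CPM in DMSO, 514, 511 and 519 at 6 h, and 505, 528 and 555 at 24 h, and changed by 0.50 and 0.54. In the Nrf1KO CFZ 24 h group, replicate 3 was the highest of the 3 libraries for all 8 subunits, and its part in these results was examined by leaving it out.

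**Figure D2:**
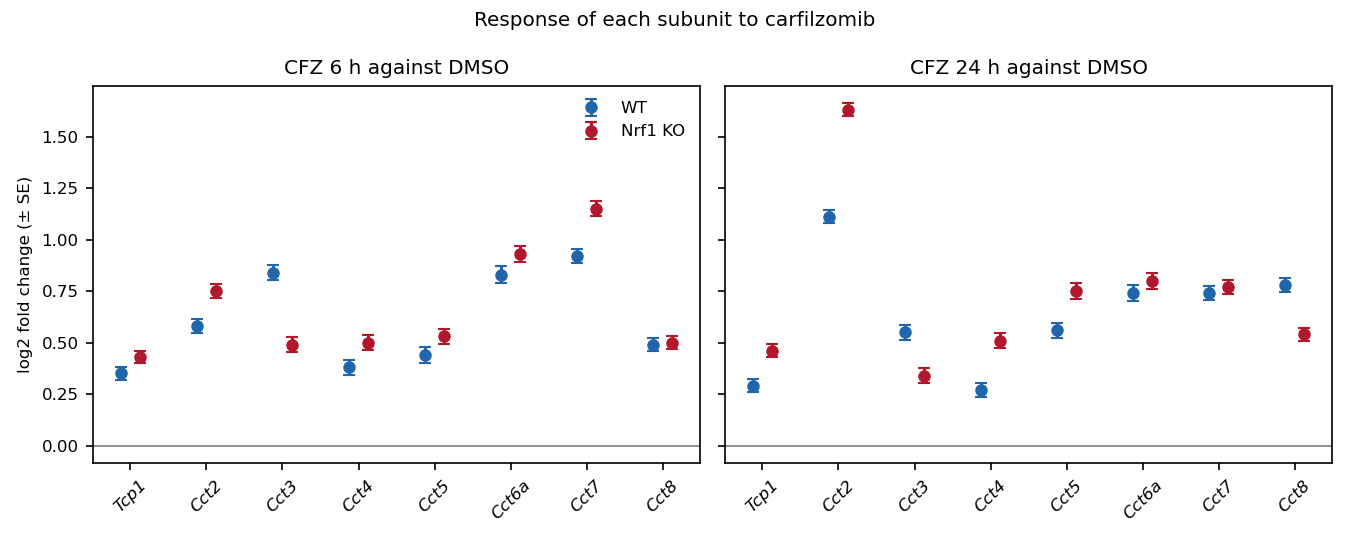
Log2 fold change (± SE) of each subunit against the DMSO group of its line after 6 h (left) and 24 h (right) of CFZ, WT in blue and Nrf1KO in red. All points lie above 0, Cct7 is highest at 6 h in both lines (0.92 and 1.15) and Cct2 at 24 h (1.11 and 1.63).

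From 6 h to 24 h in Nrf1KO, Cct2 (0.88, SE 0.032, adjusted p = 1.2e-21) and Cct5 (0.22, adjusted p = 3.1e-06) were called higher, where 38.7% of genes were, and Cct3, Cct6a and Cct7 lower, where 38.3% were. Cct7 fell by 0.38 on the log2 scale. Tcp1, Cct4 and Cct8 had changes of 0.03, 0.01 and 0.04 with 95% intervals of -0.03 to 0.10, -0.06 to 0.08 and -0.03 to 0.11.

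The next question was whether the lines differed before treatment. In DMSO, Cct5, Cct6a and Cct8 were called higher in Nrf1KO (25.7% of genes were) and Cct2, Cct3, Cct4 and Cct7 lower (29.1% of genes were). Cct8 had the largest fitted rise, 0.35 (SE 0.033, adjusted p = 1.4e-10), and Cct4 the largest fall, 0.29 on the log2 scale. The differences were at most 1.28-fold. Tcp1 gave -0.05 (95% interval -0.11 to 0.01, adjusted p = 0.19). The call of Cct6a (0.12, adjusted p = 0.016) was lost without Nrf1KO DMSO replicate 1 (adjusted p = 0.066) or 3 (0.079).

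With CFZ at 6 h, Cct5, Cct6a and Cct8 were called higher in Nrf1KO than in WT (30.5% of genes were) and Cct2, Cct3 and Cct4 lower (30.8% were). Cct3 had the largest fitted difference, -0.52 (SE 0.036, adjusted p = 9.2e-14). The call of Cct2 (-0.08, adjusted p = 0.031) was lost without Nrf1KO CFZ 6 h replicate 1 (adjusted p = 0.11) or 2 (0.082), and also under upper-quartile scaling (-0.03, adjusted p = 0.43) and library size alone (-0.01, adjusted p = 0.75). With CFZ at 24 h, Tcp1, Cct2, Cct5, Cct6a and Cct8 were called higher (35.6% of genes were) and Cct3 and Cct7 lower (36.4% were). Cct4 gave -0.05 (adjusted p = 0.18), and without Nrf1KO CFZ 24 h replicate 3 its difference of -0.08 passed (adjusted p = 0.044). Cct2 changed sides, since it was lower in Nrf1KO in DMSO (-0.25) and higher at 24 h (0.27, SE 0.031, adjusted p = 4.6e-09).

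Whether the response itself differed between the lines was tested as an interaction, the Nrf1KO log2 response minus the WT one. At 6 h Cct2 (0.17, SE 0.045, adjusted p = 0.0026) and Cct7 (0.22, SE 0.050, adjusted p = 4.8e-04) responded more in Nrf1KO, where 19.8% of genes did, and Cct3 responded less (-0.35, SE 0.052, adjusted p = 1.8e-06), where 18.4% did. The other five did not pass, with 95% intervals from -0.02 to 0.20 for Cct5, -0.01 to 0.17 for Tcp1, -0.01 to 0.22 for Cct6a, 0.02 to 0.22 for Cct4 and -0.09 to 0.10 for Cct8. The difference of Cct4 (0.12, adjusted p = 0.056) passed in some alternatives, among them without Nrf1KO CFZ 6 h replicate 1 (adjusted p = 0.049).

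At 24 h Tcp1 (0.17), Cct2 (0.52), Cct4 (0.24) and Cct5 (0.19) responded more in Nrf1KO, where 29.7% of genes did, and Cct3 (-0.21) and Cct8 (-0.24) responded less, where 30% did. The adjusted p was 1.3e-11 for Cct2 and between 4.3e-05 (Cct8) and 0.0023 (Cct5) for the other five. Cct6a (0.06, interval -0.06 to 0.17) and Cct7 (0.03, interval -0.07 to 0.13) did not pass. Scaled by library size alone, Tcp1 (0.09, adjusted p = 0.066) and Cct5 (0.11, adjusted p = 0.063) lost their calls. Leaving out Nrf1KO CFZ 24 h replicate 3 ended none of the 6 calls.

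**Figure D3:**
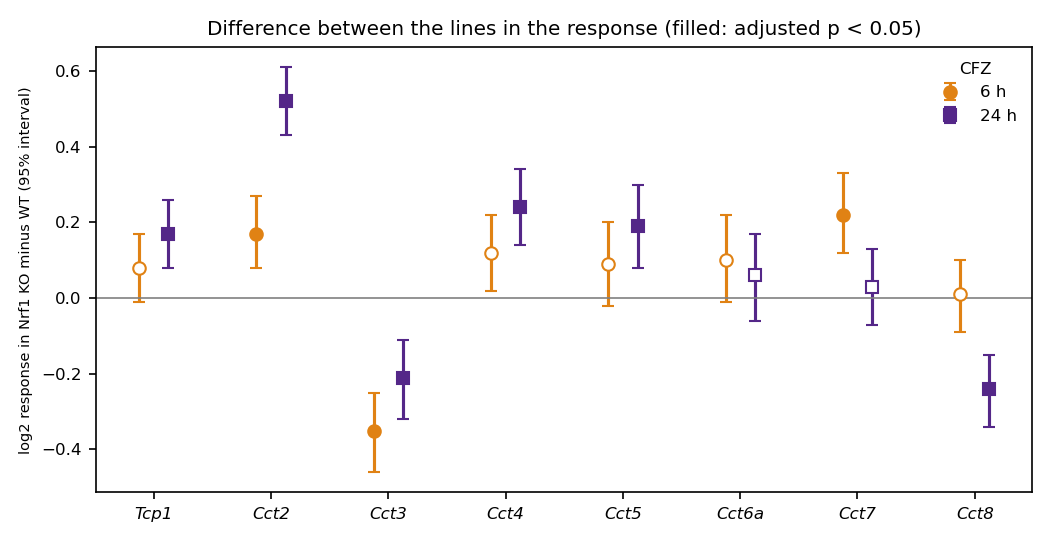
Interaction (Nrf1KO response minus WT response, log2, with 95% interval) for each subunit at 6 h (orange circles) and 24 h (purple squares), filled where the adjusted p was under 0.05. Cct2 is above 0 at both times and Cct3 below 0 at both, and at 24 h 4 subunits lie above 0 and 2 below among the 6 that passed, with Tcp1 and Cct5 losing their calls under scaling by library size alone.

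Summed over the 8 genes, the subunit transcripts made up 3463 ± 25.7 CPM in WT DMSO, 5125 ± 24.6 at 6 h and 5374 ± 79.2 at 24 h (mean ± SD, n = 3), or 1.48 and 1.55 times the DMSO mean. In Nrf1KO the sum was 3358 ± 32.8 CPM in DMSO, 5222 ± 116 at 6 h and 5848 ± 273 at 24 h, or 1.55 and 1.74 times. The spread was widest in the last group, where replicates 1, 2 and 3 were at 5607, 5794 and 6144 CPM.

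Levels between subunits were compared per kilobase of the principal transcript. For Cct6a, which has no principal transcript in the annotation used, a processed transcript of 2454 bases stood in. In WT DMSO the order was Cct5 (315 CPM per kb), Cct2 (291), Tcp1 (280), Cct4 (186), Cct3 (158), Cct7 (148), Cct8 (119) and Cct6a (81.1), and no neighbours overlapped in their libraries. After 24 h Cct2 was first in both lines, at 629 CPM per kb in WT and 758 in Nrf1KO. Neighbours that overlapped were Cct3 and Cct7 in WT at 6 h, Cct3 and Cct4 in WT at 24 h, Cct4 and Cct8 in Nrf1KO DMSO and at 6 h, and Cct7, Cct8 and Cct4 in Nrf1KO at 24 h. The order depended on the length used, since per kilobase of all exons Cct3 was the lowest in WT DMSO, at 49.2 CPM per kb.

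As shares of the summed CPM per kb, Cct2 made up 18.4% in WT DMSO, 18.6% at 6 h and 25.4% at 24 h, and in Nrf1KO 15.9%, 17.3% and 27.8%. The share of Tcp1 fell from 17.7% to 13.8% in WT and to 13.7% in Nrf1KO at 24 h. Cct3 held 10% in WT DMSO, 12.1% at 6 h and 9.36% after the longer exposure. Its Nrf1KO shares were 9.17%, 8.33% and 6.55%. The highest subunit was 3.88 times the lowest in WT DMSO, 3.03 times at 6 h and 4.66 times at 24 h. In Nrf1KO these ratios were 4.03, 3.05 and 4.95. Per kilobase of all exons they were 4.53, 3.79 and 6.69 in WT and 5.42, 5.58 and 10.5 in Nrf1KO, so the fall from DMSO to 6 h in Nrf1KO became a rise. Shares and ratios are given as levels, with no test.

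**Figure D4:**
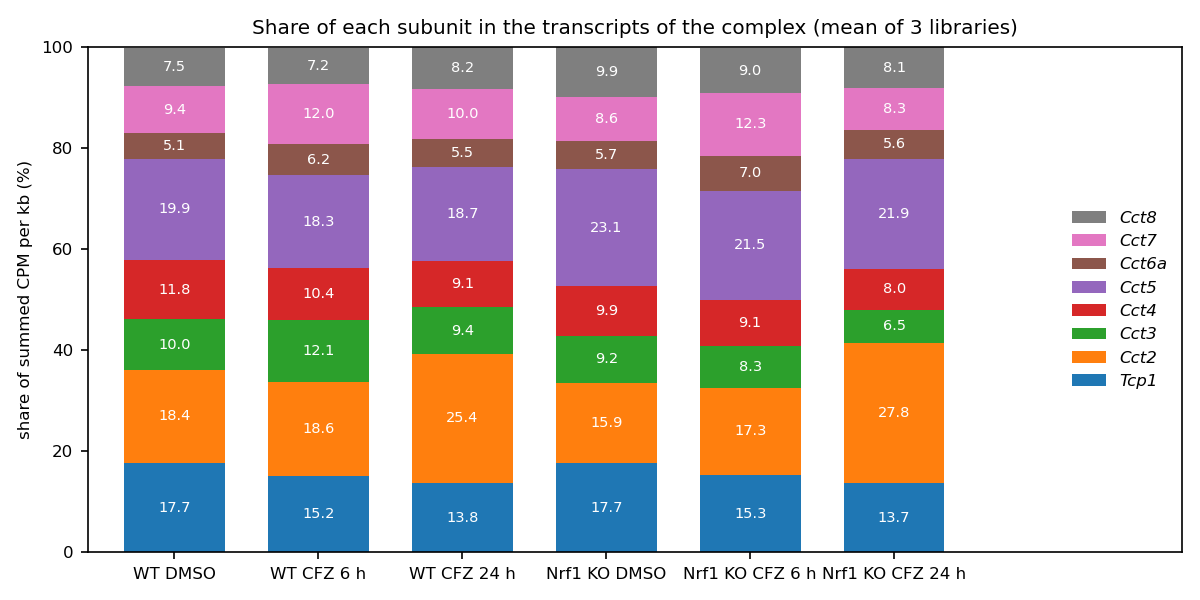
Share of each subunit in the summed CPM per kb of principal transcript (%), as stacked bars of the mean of 3 libraries for the 6 groups. The Cct2 share is largest at 24 h, 25.4% in WT and 27.8% in Nrf1KO, and the Tcp1 share is near 14% there.

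The members differed in how they moved over the groups. Profiles of centred log2 CPM over the 6 group means were compared by their root-mean-square distance, as a description. Cct5 and Cct8 were nearest (0.094), followed by Tcp1 and Cct4 (0.107), and Cct2 and Cct3 farthest apart (0.492). The distance of a member from the mean profile of the 8 ran from 0.129 (Cct6a, rank 210) to 0.332 (Cct2, rank 3742). Many genes outside the complex thus lay nearer to that mean than any member. The 6 other genes closest to the mean profile were Rbm48 (0.034), Zranb1 (0.037), Prpf3 (0.038), Simc1 (0.046), Rrn3 (0.048) and Axin1 (0.049), of 11762 genes compared. A mean of 8 genes that differ is smoother than any of them.

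Genes that work with the chaperonin were less uniform, as counts and medians of fixed lists show. Prefoldin, which delivers actin and tubulin chains, had 5 of 6 genes tested. At 6 h in WT Pfdn4 rose (0.48) and Pfdn1, Pfdn2, Vbp1 and Pfdn5 did not pass (0.01, 0.16, -0.06 and -0.03). At 24 h in WT 4 were called higher, led by Pfdn4 (0.62), and Vbp1 lower (-0.13), where 43.2% and 40.5% of all genes were. In Nrf1KO 0 were higher and 2 lower at 6 h (Pfdn2 -0.21, Pfdn5 -0.15), where 34.5% and 35% of all genes were. At 24 h 4 were higher in Nrf1KO, where 44.4% of all genes were. The responses of Pfdn2 and Pfdn4 were smaller in Nrf1KO at both times, by 0.37 and 0.52 at 6 h. Of the phosducin-like co-chaperones that regulate the complex, Txndc9 rose in each of the 4 comparisons (0.25, 0.40, 0.18 and 0.36, in the order WT 6 h, WT 24 h, Nrf1KO 6 h, Nrf1KO 24 h). Pdcl was called higher at 24 h in both lines (0.10 and 0.31) and did not pass at 6 h (-0.02 and 0.06). Pdcl3 was called higher in WT at 6 h (0.22) and not in the other three (0.04, 0.08 and 0). The testis paralog Cct6b had at most 4 counts in a library and Cct8l1 had 0, and neither was tested.

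Among the 13 actin and tubulin genes, 11 were called higher and 2 lower in WT at 6 h (35.6% and 36.2% of all genes were), and 10 higher and 2 lower at 24 h (43.2% and 40.5%). In Nrf1KO 8 were higher and 2 lower at 6 h (34.5% and 35%), and 8 higher and 4 lower at 24 h (44.4% and 41.1%). Their medians were 0.50, 0.80, 0.17 and 0.45. The actin genes Actb and Actg1 rose at 6 h in both lines, and at 24 h Actb was lower in both (-0.33 and -0.65) while Actg1 was higher in WT (0.17) and lower in Nrf1KO (-0.68). Tuba1b, an alpha-tubulin, was called lower in all 4 (-0.42, -1.25, -0.56 and -1.14). Tuba4a, another alpha-tubulin, rose most in WT (1.64 and 2.21), and Tubb3, a beta-tubulin, most in Nrf1KO (0.94 and 2.78). The 6 tubulin cofactors, which act after the chaperonin, gave medians of -0.03 and -0.09 in WT and -0.20 and -0.17 in Nrf1KO. Tbcc and Arl2 were called lower in all 4 comparisons, Tbcc most in Nrf1KO at 24 h (-1.65). Tbcb was called higher at 24 h in both lines (0.59 and 0.52) and in WT at 6 h (0.19), Tbce was higher at 6 h in both (0.37 and 0.47) and lower in WT at 24 h (-0.15), Tbcd was lower in Nrf1KO (-0.26 and -0.27), and Tbca passed in Nrf1KO at 6 h alone (-0.15). The 11 other clients gave medians of -0.17 and -0.06 in WT and -0.31 and -0.09 in Nrf1KO. The kinase gene Plk1 was lowest of them in all 4, at -1.44 and -2.26 in WT and -1.25 and -4.83 in Nrf1KO, and Rptor was highest in WT (1.10 and 1.32), Mlst8 in Nrf1KO at 6 h (0.29) and Strap there at 24 h (0.47).

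Against DMSO, the cytosolic heat shock genes and the mitochondrial chaperonin had larger medians than the subunits of TRiC. Prefoldin and the phosducin-like co-chaperones had smaller ones. Of 16 cytosolic heat shock genes, 15 were tested. All 15 rose at 6 h in both lines, where 35.6% of all genes in WT and 34.5% in Nrf1KO were called higher. Their medians were 2.23 in WT and 2.40 in Nrf1KO. At 24 h in WT 14 rose (43.2% of all genes did) and Fkbp4, an Hsp90 co-chaperone, was lower (-0.51), with a median of 1.47. In Nrf1KO 15 rose at 24 h (44.4% of all genes did), with a median of 1.68. In the interaction at 6 h, 10 of the 15 responded more in Nrf1KO and 1 less (19.8% and 18.4% of all genes did). At 24 h 10 responded more and 2 less (29.7% and 30% of all genes did). Their interaction medians were 0.23 at 6 h and 0.54 at 24 h. Hsph1 and Dnajb1, partners of Hsp70, had the largest changes at 6 h, 3.33 in WT and 3.88 in Nrf1KO. Hspd1 and Hspe1, the mitochondrial chaperonin and its lid, rose by 1.84 and 1.24 in WT and 2.15 and 1.60 in Nrf1KO at 6 h. Both responded more in Nrf1KO at 24 h (0.60 and 0.49). The factor genes Hsf1 and Hsf2 rose in all 4 comparisons and less in Nrf1KO, by 0.42 and 0.55 at 24 h.

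The 20S alpha ring of the proteasome set off another pattern. All 7 of its genes rose in WT at both times, where 35.6% and 43.2% of all genes were called higher. Their log2 changes had medians of 1.02 and 1.26. These changes ran from 0.84 (Psma2) to 1.44 (Psma1) at 6 h and from 0.85 (Psma6) to 1.71 (Psma5) at 24 h. In Nrf1KO Psma1 rose and Psma2 and Psma4 fell at 6 h (median -0.02), and Psma1, Psma3, Psma5 and Psma7 rose and Psma4 fell at 24 h (median 0.20). Of all genes, 34.5% were called higher and 35% lower in Nrf1KO at 6 h, and 44.4% and 41.1% at 24 h. All 7 responded less in Nrf1KO at both times, where 18.4% of all genes did at 6 h and 30% at 24 h. Their interaction median was -1.15 at each time.

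**Figure D5:**
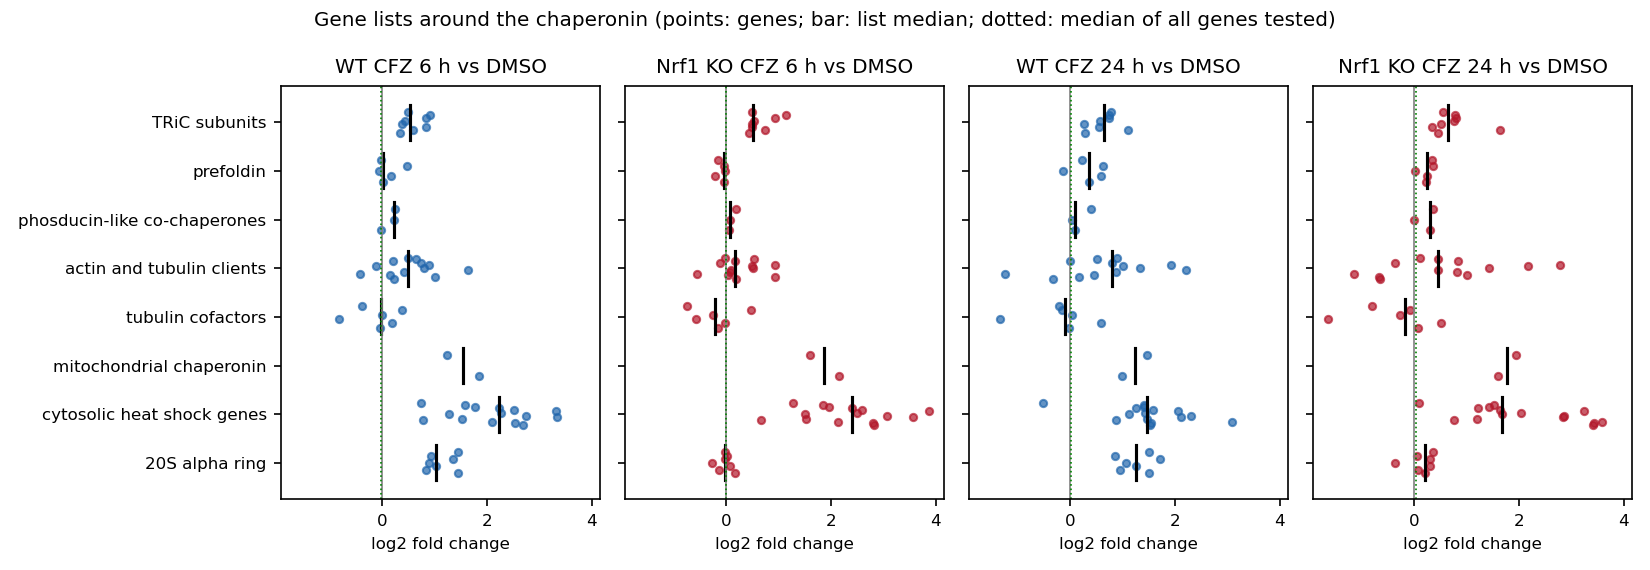
Log2 fold change of each gene (points) and the list median (bar) in 4 comparisons against DMSO, with a dotted line for the median of all genes tested, for 8 of the lists. TRiC medians are 0.53, 0.52, 0.65 and 0.64 from left to right, those of the heat shock genes 2.23, 2.40, 1.47 and 1.68, and those of the 20S alpha ring 1.02, -0.02, 1.26 and 0.20.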

How the data were processed

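RNA from NIH-3T3 cells was sequenced as paired-end, stranded mRNA libraries. The deposited values were raw counts per gene symbol, which the authors made with STAR inside an Illumina app that also ran DESeq2, and the genome build, annotation and strand setting were not given in the sources used here. All 18 libraries were used. The members and gene lists were chosen with earlier results of these data known. Counts were filtered (filterByExpr, minimum count 10, total 15), TMM-scaled and fitted in edgeR 4.0.16 (R 4.3.3) as a single quasi-likelihood model of 6 groups, with Benjamini-Hochberg adjustment over 11762 genes, a threshold of 0.05 and 11 comparisons. The fit was tested on simulated counts. CPM were from those sizes. Named genes were the 8 members, Nfe2l1, the highest and lowest gene of each list in each comparison, all genes of lists of up to 7, and the 6 closest profiles (CPM offset 0.5). Alternatives were DESeq2 1.42.0, upper-quartile scaling, library size alone, no filter, a mean count of 10, the compared groups only, a replicate block, a minimum fold of 1.5 and leaving out each library. Replicate numbers did not pair the samples. P-values set a difference between groups against a spread between replicate libraries that was estimated over all 6 groups together. That spread is not the one of the compared groups alone, and groups differed in it. The SD of Cct2 was 1.94 CPM in WT DMSO (mean 571) and 61.1 in Nrf1KO CFZ 24 h (mean 1484). The p-values do not cover variation between lines or clones. Depth limited low genes, and the common biological coefficient of variation was 3.13%.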

Additional observations from a re-analysis of the deposited data

Results flagged for a closer look

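The responses of 9 subunit and time pairs differed between the lines in the interaction test (Nrf1KO response minus WT response, log2). At 6 h these were Cct2 (0.17, adjusted p = 0.0026), Cct3 (-0.35, adjusted p = 1.8e-06) and Cct7 (0.22, adjusted p = 4.8e-04). At 24 h they were Tcp1 (0.17, adjusted p = 0.0013), Cct2 (0.52, adjusted p = 1.3e-11), Cct3 (-0.21, adjusted p = 6.4e-04), Cct4 (0.24, adjusted p = 1.1e-04), Cct5 (0.19, adjusted p = 0.0023) and Cct8 (-0.24, adjusted p = 4.3e-05). Cct2 and Cct3 differed at both times, in opposite directions. Of all genes, 19.8% responded more and 18.4% less in Nrf1KO at 6 h, where 2 and 1 of the 8 subunits did, and 29.7% and 30% at 24 h, where 4 and 2 did. These shares are close to those of the subunits at 6 h, and scaled by library size alone the number that responded more at 24 h was 2. Of all genes called in the interaction at 24 h, 40% were higher under that scaling and 49.8% under TMM scaling.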

How the results depend on the processing

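All 8 subunits were called higher in the 4 comparisons of CFZ with DMSO under every alternative but the minimum fold of 1.5. With that fold required, 3 were called in WT and 3 in Nrf1KO at 6 h (10.9% and 9.84% of all genes were). At 24 h 4 and 4 were called (22.7% and 23.9% of all genes were). Between 24 h and 6 h that fold left 0 higher and 0 lower in WT and 1 higher and 0 lower in Nrf1KO. Of 11762 genes, 3273 in WT and 4013 in Nrf1KO passed it there, in either direction. Between the lines and in both interactions it left 0 subunits higher and 0 lower. Of all genes, 1180 in DMSO, 1889 at 6 h and 3173 at 24 h passed it between the lines. In the interactions 1010 genes did at 6 h and 2592 at 24 h. In WT from 6 h to 24 h, 5 subunits were lower under upper-quartile scaling, with no filter and with the compared groups only, and 3 to 5 when a library was left out. It was 5 without WT DMSO replicate 1, WT CFZ 6 h replicates 1, 2 or 3, or Nrf1KO CFZ 24 h replicates 1, 2 or 3. Between the lines at 6 h, 5 were higher under upper-quartile scaling and library size alone. Of all genes called there, 57.9% and 60.8% were higher under these scalings, and 49.8% under TMM scaling. The interaction gave 4 higher at 6 h under upper-quartile scaling and 2 higher at 24 h under library size alone. Of all genes called in it at 6 h, 60.3% were higher under upper-quartile scaling and 51.8% under TMM scaling. At 24 h 40% were higher under library size alone and 49.8% under TMM scaling.

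Directions that turned were all of values near 0 that had not passed. From 6 h to 24 h in Nrf1KO, Tcp1 was 0 and Cct4 -0.03 under upper-quartile scaling, and Tcp1 was -0.04, Cct4 -0.06 and Cct8 -0.03 under library size alone. With a library left out these ran from -0.01 to 0.05, -0.05 to 0.03 and -0.01 to 0.06. At 24 h between the lines Cct4 ran from -0.08 to 0. In the interaction, Cct6a was -0.02 and Cct7 -0.05 at 24 h under library size alone, Cct8 was -0.01 at 6 h with no filter, and with a library left out Cct8 ran from -0.02 to 0.01 at 6 h and Cct7 from 0 to 0.05 at 24 h. The cause was not tested.

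Upper-quartile scaling moved the median of all genes by -0.11 in WT at 6 h and library size alone by -0.18 in Nrf1KO at 24 h, where the subunit medians were 0.43 and 0.46. The share of calls that were higher was 49.6% in WT at 6 h and 37.9% and 35.4% under these scalings, and under library size alone it went from 49.7% to 36.4% in Nrf1KO at 6 h and from 52% to 41.6% at 24 h, and between the lines from 46.9% to 57.7% in DMSO and from 49.8% to 60.8% at 6 h.

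With the replicate number as a block, Cct6a from 6 h to 24 h in WT (-0.09, adjusted p = 0.028) and Cct4 in the interaction at 6 h (0.12, adjusted p = 0.03) passed, and 4 subunits were lower in the first of these. Deviations of same-numbered libraries correlated by 0.0195 on average (from -0.0595 to 0.137 over 45 pairs), so the numbers were read as names.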
